A study of Mus musculus with 16 samples.

Results

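The transcripts described here are those of 10 genes that mark macrophages or encode macrophage receptors: Adgre1, Csf1r, Csf1, Cd68, Mrc1, Cd163, Lyz2, Mgl2, Msr1 and Cd84. They were chosen by name, as genes of macrophage identity and of the mannose receptor and related uptake receptors, and all 10 were found among the 49568 gene symbols of the count table and passed the filter on low counts of each comparison. Mgl2, which had no counts in 2 uninjured libraries, did not pass an alternative filter of at least 10 counts in every library. RNA was sequenced from 16 single deep digital flexor tendons of male mice aged 9 to 11 weeks, in 4 groups of 4 libraries: uninjured and injured C57 tendons (C57BL/6J, a common inbred strain) and uninjured and injured MRL tendons (MRL/MpJ, an inbred strain known for healing with little scarring). Injured tendons had a laceration through 50% of their width in a hind paw digit and were taken at 7 days post injury (dpi), and no group carried a transgene. Per the methods, operated mice were given ketamine, xylazine and the analgesic buprenorphine, which are not described for uninjured mice, so that the agents and the injury cannot be told apart. The sheath and other tissue around the tendon were left on it, and their part in the RNA was not tested. Injured libraries carry label numbers and uninjured ones replicate numbers, and values are given in that order: BI-181, then BI-183, BI-184 and last BI-185 for injured C57, BI-270, then BI-272, BI-274 and last BI-275 for injured MRL, and replicates 1 to 4 for uninjured tendons.

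Macrophages enter injured tendon as blood monocytes and also live in the tissue before injury. Their survival depends on the receptor encoded by Csf1r, a tyrosine kinase that binds the growth factor encoded by Csf1 (made mainly by fibroblasts and other stromal cells) and interleukin 34. Once in the tissue they take up debris, glycoproteins and modified lipoproteins through receptors such as the mannose receptor (Mrc1), the haemoglobin scavenger receptor (Cd163) and the class A scavenger receptor (Msr1). High Mrc1, Cd163 and Mgl2 are commonly used as marks of resident or alternatively activated macrophages, whereas Adgre1, Cd68 and Lyz2 are used as general macrophage or myeloid marks.

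The libraries held between 12552424 and 23741648 counts on genes, and the injured MRL libraries (18524170 to 23741648) were deeper than every library of the other groups (at most 17832908). Counts are given below as CPM, scaled to TMM-adjusted library sizes, on which 3 counts, taken as the floor, corresponded to 0.126 to 0.241 CPM. The library labelled C57 uninjured replicate 4 held 9.70% of its counts on 12 epidermal marker genes, whereas no other library exceeded 0.118%, and its Spearman correlation with the remaining uninjured C57 libraries was 0.799 to 0.834. Skeletal muscle genes, 12 in number, took 5.30% of the counts of BI-181. The uninjured libraries labelled replicate 4 also went against their strain labels. Among 37 genes that had at least 10 counts in every injured C57 library and at most 1 count in every injured MRL library, 17 to 27 reached 10 counts in C57 uninjured replicates 1 to 3 and 1 to 6 did so in MRL uninjured replicates 1 to 3, but only 4 did so in the library labelled C57 uninjured replicate 4 and 18 in the library labelled MRL uninjured replicate 4. Among 38 genes with the opposite pattern, 0 or 1 reached 10 counts in C57 uninjured replicates 1 to 3 and 28 to 31 in MRL uninjured replicates 1 to 3, against 29 in the library labelled C57 uninjured replicate 4 and 1 in the library labelled MRL uninjured replicate 4. All libraries were kept under their labels, and calls after injury that change without these 2 libraries are also given without them, whereas levels per kilobase, likeness of profiles and medians of lists use all libraries. The comparison of injured MRL with injured C57 tendons does not use these 2 libraries, but it does use BI-181.

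In the GENCODE M21 annotation of GRCm38 the 10 genes are protein-coding. Adgre1 lies on chromosome 17 from 57358691 to 57483527, Csf1 on chromosome 3 from 107741048 to 107760469 and Cd68 on chromosome 11 from 69664213 to 69666153. Mrc1 lies on chromosome 2 from 14229392 to 14332057, Cd163 on chromosome 6 from 124304656 to 124330527 and Lyz2 on chromosome 10 from 117277331 to 117282321. Mgl2 lies on chromosome 11 from 70130329 to 70137550, Msr1 on chromosome 8 from 39581685 to 39642673 and Cd84 on chromosome 1 from 171839697 to 171890718. Close relatives lie beside 2 of them, Lyz1 beside Lyz2 and Clec10a beside Mgl2. Of the stretches of 100 bases (the read length) in annotated Lyz2 transcripts, 1.97% also occurred in Lyz1 transcripts, and 3.95% of those of Mgl2 occurred in Clec10a transcripts. For Csf1r 13.5% occurred in transcripts of the neighbouring gene Hmgxb3, and for the other 7 genes none was shared with another gene. Reads of MRL tendons were mapped to a C57BL/6J reference, and the part of this in the strain comparisons was not tested.

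RefSeq promoter windows of GRCm38.p6, from 250 bases before to 50 after the annotated start, were at hand for 7 of the 10 genes (not for Adgre1, Csf1r and Msr1). They were searched on both strands for GAGGAA, a core bound by the myeloid factor PU.1, for TTGCNNAA, a form bound by C/EBP factors, and for TGANTCA, a form bound by AP-1 factors, of which 28.3%, 10.8% and 7.81% of all 32851 such windows held at least 1. The last 200 bases before the start are printed for Cd68 (chr11:69666171-69666370, minus strand) and Lyz2 (chr10:117282273-117282472, minus strand), whose profiles over the libraries were closest among the 10 genes, for Mrc1 (chr2:14229214-14229413, plus strand), whose injury response differed most in size between the strains relative to its error, and for Csf1 (chr3:107760470-107760669, minus strand), which was not higher after injury. Each reads 5′ to 3′ on the strand of its gene, and capitals mark matches to any of the 3 patterns on either strand.
Cd68: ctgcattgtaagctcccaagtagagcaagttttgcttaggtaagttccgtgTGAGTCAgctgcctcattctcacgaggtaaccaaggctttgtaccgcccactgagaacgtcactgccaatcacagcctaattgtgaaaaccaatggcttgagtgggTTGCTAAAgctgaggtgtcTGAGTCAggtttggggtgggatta
Lyz2: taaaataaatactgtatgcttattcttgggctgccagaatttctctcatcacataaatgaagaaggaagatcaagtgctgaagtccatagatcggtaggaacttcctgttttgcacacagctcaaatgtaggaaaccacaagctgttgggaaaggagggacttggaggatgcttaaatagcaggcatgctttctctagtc
Mrc1: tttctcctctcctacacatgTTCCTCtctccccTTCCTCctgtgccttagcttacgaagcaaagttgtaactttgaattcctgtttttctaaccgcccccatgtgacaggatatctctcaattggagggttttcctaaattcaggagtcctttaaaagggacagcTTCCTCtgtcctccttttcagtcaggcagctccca
Csf1: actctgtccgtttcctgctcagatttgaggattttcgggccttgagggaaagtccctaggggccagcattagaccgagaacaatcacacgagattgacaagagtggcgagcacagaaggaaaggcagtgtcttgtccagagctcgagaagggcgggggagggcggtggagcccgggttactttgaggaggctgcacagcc
In the full window Cd68 held GAGGAA at 2 places, TTGCNNAA at 1 and TGANTCA at 2, the last 149 and 24 bases before the start. Mrc1 held GAGGAA at 3 places, 180, 167 and 35 bases before the start, each on the opposite strand, so that the letters printed are the reverse complement. Mgl2 held GAGGAA at 1 place and Cd84 held GAGGAA and TGANTCA at 1 place each. Lyz2, Cd163 and Csf1 held none of the 3 patterns in these windows. No pattern was in the windows of all 7 genes, and a missing match says only that these letters are not in this window.

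Levels were first compared between genes as CPM per kilobase of annotated exon. Lyz2, which encodes the macrophage form of lysozyme, was the most abundant in every group, at 577 ± 149 CPM per kilobase (SD, n = 4) in uninjured C57, 612 ± 152 in uninjured MRL, 3638 ± 903 in injured C57 and 3163 ± 889 in injured MRL tendons. In uninjured tendons Csf1 followed, at 59.4 ± 22.7 CPM per kilobase in C57 and 62.1 ± 8.91 in MRL, and then Cd68 and Csf1r. In injured tendons Cd68 ranked above Csf1 in both strains, at 194 ± 41.6 CPM per kilobase in C57 and 142 ± 47.6 in MRL. The lower end of the order held Mrc1, Msr1, Mgl2, Cd163 and Cd84, whose neighbours in rank mostly overlapped between libraries. In injured C57 tendons the order ran from Adgre1 (29.4 CPM per kilobase) through Mrc1 (19.6), Mgl2 (18.6), Msr1 (14.8) and Cd163 (9.81) to Cd84 (6.56), and the libraries of each neighbouring pair among these 6 genes overlapped. In injured MRL tendons Msr1 (21.7) and Mgl2 (18.4) ranked above Adgre1 (15.4) and Mrc1 (9.97), with overlap between the neighbouring pairs among these 4 genes.

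After injury 9 of the 10 genes were higher on average in both strains. A gene was called when the Benjamini-Hochberg adjusted p of edgeR's quasi-likelihood test, taken over all genes tested, was under 0.05 and the absolute log2 fold change was over 1. In C57 tendons 5 of the 10 were called higher (Adgre1, Cd68, Mrc1, Lyz2 and Cd84), where 0.908% of all 14424 genes tested were. In MRL tendons 6 of the 10 were called higher (Adgre1, Cd68, Lyz2, Mgl2, Msr1 and Cd84), where 5.25% of 14274 genes were. Every injured library lay above every uninjured library for 9 genes in C57 and for 6 in MRL, against 7.51% and 13.5% of all genes. Over the 10 genes the median log2 fold change was 2.48 in C57, where that of all genes was -0.05, and 1.75 in MRL, where it was -0.03. With 1 library left out at a time, the number called in C57 was 1 (Cd84) without uninjured replicate 1, uninjured replicate 3 or BI-185, 3 without uninjured replicate 2, BI-183 or BI-184, and 5 without BI-181. Without the library labelled uninjured replicate 4, the number called in C57 was 9, all but Csf1, and in MRL it was 4 (Cd68, Lyz2, Msr1 and Cd84). Of all genes tested in C57, 524 of 14983 were called higher in that fit, whereas 10 to 83 were with any other single library left out. In MRL, 909 of all genes were called in either direction in that fit, against 1057 with all libraries. Cd68, Lyz2, Msr1 and Cd84 were called in MRL whichever library was left out, whereas Adgre1 was lost without uninjured replicate 1, 3 or 4 or BI-270, and Mgl2 without uninjured replicate 2 or 4 or any 1 of the injured libraries. In a bulk tendon sample, more macrophages and more RNA of these genes per macrophage cannot be told apart.

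**Figure D1:**
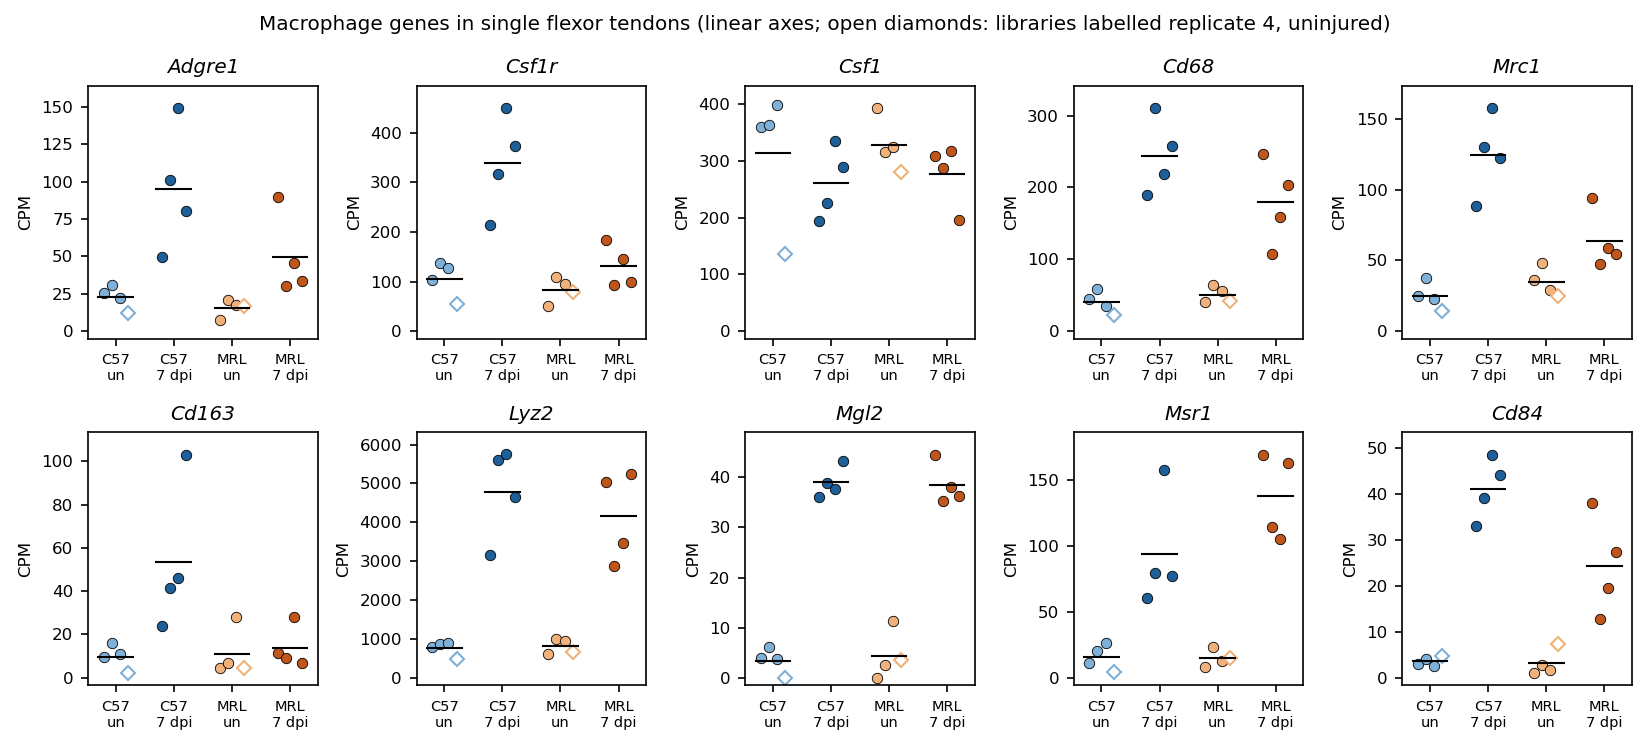
Expression of the 10 genes in each of the 16 libraries, in CPM on linear axes, with the 4 groups (C57 and MRL, uninjured, "un", and injured at 7 dpi) along the horizontal axis. Points are single tendons, bars are group means, and open diamonds are the uninjured libraries labelled replicate 4. Injured C57 tendons lay above uninjured ones for every gene except Csf1, and Mgl2 lay between 35.2 and 44.4 CPM in all 8 injured tendons.

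Among the general macrophage genes, Adgre1 encodes the surface protein EMR1, a widely used marker of mouse macrophages. It stood at 25.6, 31.1, 22.3 and 12.0 CPM in uninjured C57 replicates 1 to 4 and at 49.8, 101, 149 and 80.4 CPM in injured ones. The groups did not overlap, and the change was 4.04-fold (log2 2.01, SE 0.38, adjusted p = 0.0479). In MRL tendons it stood at 7.50, 20.6, 17.6 and 17.1 CPM before injury and at 90.0, 29.9, 45.8 and 33.6 CPM after it. BI-270 was the highest of these, and the change was 3.19-fold (log2 1.67, SE 0.40, adjusted p = 0.0265). Without the library labelled MRL uninjured replicate 4 the adjusted p was 0.0581. In C57 the adjusted p was 0.0562 with upper-quartile scaling, 0.0514 with total-count scaling and 0.101 to 0.149 without any 1 of uninjured replicates 1 to 3, BI-183, BI-184 or BI-185, so that the call was lost in each. It was 0.0175 when the library labelled uninjured replicate 4 was left out.

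Cd68, a lysosomal membrane glycoprotein of macrophages, was at 44.5, 59.1, 34.6 and 22.2 CPM in uninjured C57 tendons and at 189, 310.4, 219 and 257 CPM in injured ones. It rose 5.89-fold (log2 2.56, SE 0.31, adjusted p = 0.0121). In MRL it went from 40.4, 63.8, 55.8 and 42.0 CPM to 246, 107, 159 and 204 CPM. This was a rise of 3.57-fold (log2 1.83, SE 0.27, adjusted p = 0.00331), again with no overlap. Lyz2 had 802, 864, 899.6 and 471 CPM in uninjured C57 tendons and 3165, 5596, 5748 and 4642 CPM in injured ones. It rose 6.10-fold (log2 2.61, SE 0.30, adjusted p = 0.0121). In MRL it had 612, 1004, 950.1 and 656 CPM before injury and 5045, 2885, 3459.7 and 5257 CPM after it, a rise with a log2 fold change of 2.38 (95% interval 1.79 to 2.97, SE 0.27, adjusted p = 0.00120). Cd68 and Lyz2 also had the closest profiles of any pair among the 10 genes, with a root-mean-square difference of 0.298 between their centred log2 CPM over the 16 libraries.

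Csf1r, which lies on chromosome 18 from 61100598 to 61132149, was at 103, 138, 127 and 55.4 CPM in uninjured C57 tendons and at 214, 317, 451 and 373 CPM in injured ones, with no overlap. The difference of 3.09-fold (log2 1.63, SE 0.32) had an adjusted p of 0.0546, and of 0.0139 without the library labelled C57 uninjured replicate 4. In MRL the values before injury were 51.0, 109, 95.6 and 78.4 CPM, and those after injury were 184, 93.7, 145 and 99.8 CPM. BI-272 and BI-275 lay within the range of the uninjured tendons, and the change of 1.57-fold was not called (95% interval 1.03 to 2.40, adjusted p = 0.151). Csf1 was at 359, 363, 398 and 136 CPM in uninjured C57 tendons and at 193, 226, 336 and 289.5 CPM in injured ones. The lowest value of all 16 libraries came from the one labelled C57 uninjured replicate 4. MRL tendons had 393, 315, 324 and 281 CPM before injury and 308, 287, 317 and 195 CPM after it. The fold change of Csf1 was 0.805 in C57 (95% interval 0.476 to 1.36, adjusted p = 0.713) and 0.848 in MRL (0.642 to 1.12, adjusted p = 0.426).

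The mannose receptor gene Mrc1 encodes CD206, which takes up glycoproteins that end in mannose. It was at 25.1, 37.2, 22.8 and 14.4 CPM in uninjured C57 tendons and at 88.2, 130.4, 158 and 123 CPM in injured ones, and it rose 4.85-fold (log2 2.28, SE 0.30, adjusted p = 0.0152). In MRL it was at 36.3, 48.4, 28.7 and 24.9 CPM before injury and at 93.9, 47.2, 58.5 and 54.4 CPM after it. BI-272 lay below uninjured replicate 2, and the difference of 1.85-fold did not pass (log2 0.88, SE 0.27, adjusted p = 0.0600). Without MRL uninjured replicate 2 the adjusted p was 0.0486 and Mrc1 was called. Mgl2 encodes a C-type lectin that binds galactose-type sugars. It was at 3.83, 6.10, 3.71 and 0 CPM in uninjured C57 tendons and at 36.1, 39.0, 37.6 and 43.3 CPM in injured ones. MRL tendons had 0, 2.45, 11.3 and 3.54 CPM before injury and 44.4, 35.2, 38.0 and 36.3 CPM after it. A count of 0 allows up to 0.197 CPM in the library labelled C57 uninjured replicate 4 and 0.199 CPM in MRL uninjured replicate 1. The injured libraries of both strains thus lay in one narrow range, and the fold change depended on the uninjured ones. It was 11.1-fold in C57 (95% interval 2.60 to 47.3, adjusted p = 0.128, and 0.000846 with uninjured replicate 4 left out) and 8.88-fold in MRL (2.32 to 33.95, adjusted p = 0.0444, and 0.0946 without the library labelled MRL uninjured replicate 4). The log2 fold change in MRL was 3.15, and ran from 2.74 without uninjured replicate 1 to 4.27 without uninjured replicate 3.

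Cd163 was at 9.55, 16.02, 11.1 and 2.17 CPM in uninjured C57 tendons and at 23.8, 41.6, 46.0 and 103 CPM in injured ones, and BI-185 was the highest of all libraries. Its difference of 5.33-fold was not called (log2 2.41, SE 0.62, adjusted p = 0.112), but was called without the library labelled C57 uninjured replicate 4 (adjusted p = 0.0350). In MRL it was at 4.31, 6.71, 28.1 and 4.42 CPM before injury and at 11.2, 9.03, 28.1 and 6.69 CPM after it. The groups overlapped, and the fold change was 1.27 (95% interval 0.457 to 3.51, adjusted p = 0.779). Without BI-274 the sign turned (log2 -0.27), and without MRL uninjured replicate 3 the log2 fold change was 1.41, neither of which was called.

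Msr1 encodes the class A scavenger receptor, which binds modified lipoproteins and debris. It was at 10.8, 20.2, 26.4 and 4.48 CPM in uninjured C57 tendons and at 60.6, 79.6, 157 and 77.3 CPM in injured ones. The difference of 5.85-fold had an adjusted p of 0.0619 (log2 2.55, SE 0.54), and of 0.0163 without the library labelled C57 uninjured replicate 4. MRL tendons had 8.29, 23.1, 12.3 and 15.0 CPM before injury and 169, 114, 105 and 163 CPM after it. This rise of 9.44-fold (log2 3.24, SE 0.32, adjusted p = 0.000876) was called whichever library was left out, with log2 fold changes of 3.04 to 3.55. Cd84, a SLAM family adhesion receptor of leukocytes, was at 2.89, 4.02, 2.63 and 4.80 CPM in uninjured C57 tendons and at 32.9, 39.1, 48.4 and 44.1 CPM in injured ones. It rose 11.1-fold (log2 3.47, SE 0.28, adjusted p = 0.00257) and was the one gene of the 10 called in C57 whichever library was left out. In MRL it was at 1.06, 2.67, 1.73 and 7.32 CPM before injury and at 38.1, 12.8, 19.5 and 27.3 CPM after it. It rose 7.72-fold (log2 2.95, SE 0.60, adjusted p = 0.0130), and without the library labelled MRL uninjured replicate 4, its highest uninjured value, the log2 fold change was 3.76.

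**Figure D2:**
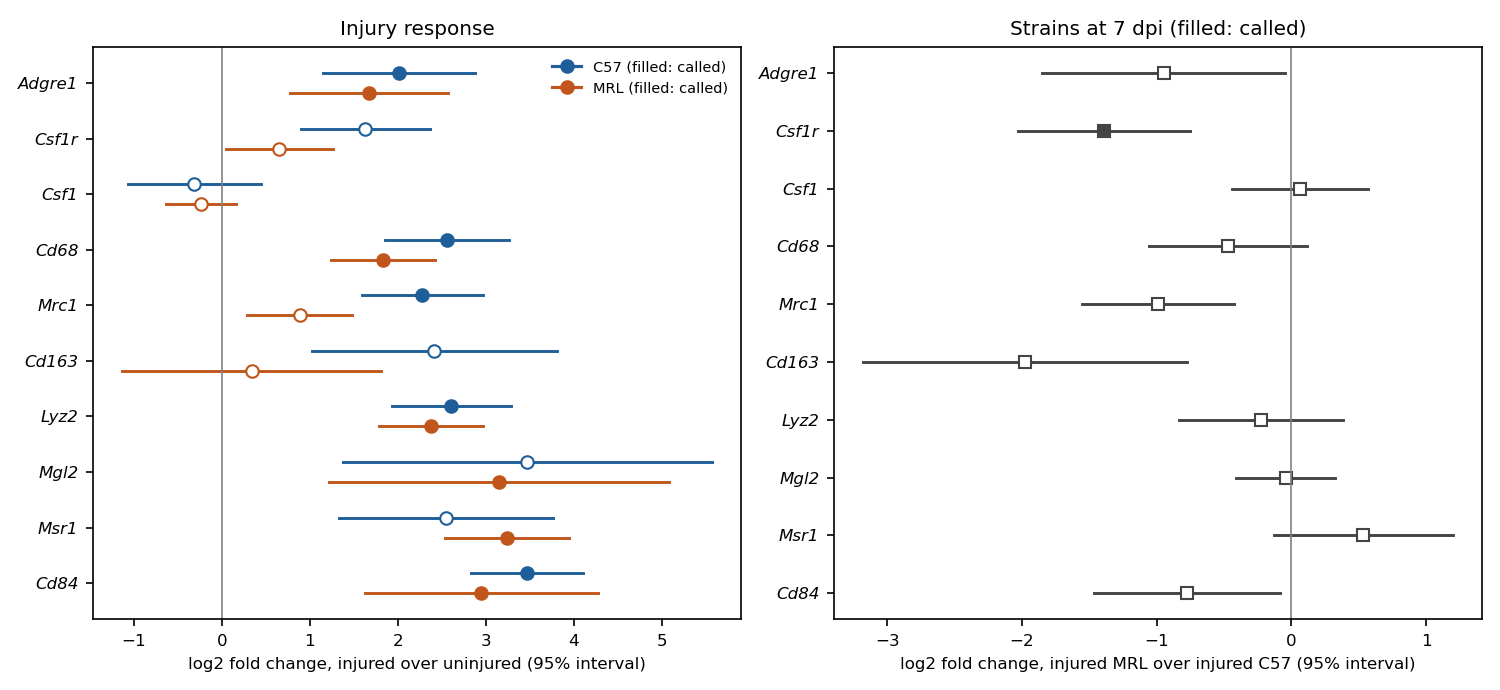
Log2 fold changes of the 10 genes with 95% intervals from edgeR, for injured over uninjured tendons in C57 and MRL (left) and for injured MRL over injured C57 tendons (right). Filled symbols passed both criteria: 5 genes in C57 and 6 in MRL after injury, and Csf1r between the injured strains.

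The difference between the strains in their injury response was read from an interaction term fitted to all 16 libraries. None of the 10 genes was called at an adjusted p under 0.05, nor was any of the 15947 genes tested (0%), of which 1939 (12.2%) had an unadjusted p under 0.05, among them 3 of the 10. On counts simulated with 200 genes changed, the edgeR interaction test called 89 of these, so a missing call does not show equal responses. DESeq2 called 128 genes, none of them among the 10. By edgeR, the log2 difference of the responses, MRL minus C57, was -1.45 for Mrc1 (SE 0.42, adjusted p = 0.333), -1.03 for Csf1r (SE 0.45, adjusted p = 0.385) and -2.13 for Cd163 (SE 0.98, adjusted p = 0.407). That of Cd163 was -1.05 without MRL uninjured replicate 3. Among the other 7 it ranged from -0.78 for Cd68 to 0.63 for Msr1. Without both uninjured libraries labelled replicate 4, a choice made after the data were seen, it was -1.38 for Mrc1, -0.84 for Csf1r and -2.06 for Cd163, and again no gene was called.

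Between the uninjured strains none of the 10 was called and none had an unadjusted p under 0.05, where 0% of 14055 genes were called and 7.87% had an unadjusted p under 0.05 (DESeq2 called 58 genes, none of them among the 10). The log2 difference, MRL over C57, ranged from -0.55 for Adgre1 (95% interval -1.39 to 0.29) to 0.46 for Mrc1 (-0.25 to 1.17). Both libraries labelled replicate 4 enter this comparison. Without them 497 genes were called, but still none of the 10, and Adgre1 was at -0.80 (adjusted p = 0.254).

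The comparison of the injured tendons holds neither library labelled uninjured replicate 4, but it holds BI-181. In it 8 of the 10 genes were lower in MRL than in C57 by fitted log2 fold change. The median was -0.62, against -0.06 over all genes, and without BI-181 it was -0.72, against -0.04. In the same comparison the 12 tendon fibroblast genes had a median of 0.86, with 11 of 12 above 0 and 1 called higher, and they summed to 35496 to 63198 CPM in injured C57 and 72242 to 116620 CPM in injured MRL tendons. Of these 12 genes, Dcn alone had means of 24113 CPM in injured C57 and 44708 CPM in injured MRL tendons. The part of the 12 in the levels of the 10 genes was not tested. An unadjusted p under 0.05 was reached by 5 of the 10 and by 21.2% of all genes. Csf1r was called lower, where 1.88% of 14626 genes were. Its injured libraries did not overlap between the strains, where all MRL libraries were below all C57 libraries for 7.9% of genes. They ran from 93.7 to 184 CPM in MRL and from 214 to 451 CPM in C57 (log2 -1.39, SE 0.29, adjusted p = 0.0273). This call was lost without BI-183, BI-184, BI-185, BI-272, BI-274 or BI-275, when the adjusted p was between 0.0521 and 0.0843 and the log2 difference between -1.42 and -1.22. Cd163 (log2 -1.98, SE 0.54, adjusted p = 0.0739) and Mrc1 (log2 -0.99, SE 0.25, adjusted p = 0.0598) did not pass, and the highest MRL library overlapped with the C57 range for both. For both, BI-181 was the only C57 library below that MRL library. Adgre1 (log2 -0.95, adjusted p = 0.213) and Cd84 (log2 -0.78, adjusted p = 0.190) did not pass either. Lyz2 (log2 -0.22, 95% interval -0.83 to 0.39), Cd68 (-0.47, -1.06 to 0.12), Csf1 (0.07, -0.44 to 0.57) and Mgl2 (-0.04, -0.41 to 0.32) had intervals that included 0, and that of Mgl2 spans folds of 0.754 to 1.25. Msr1 had the highest estimate (log2 0.54, 95% interval of the fold 0.916 to 2.29, adjusted p = 0.332) and did not pass. Mrc1 was called without BI-181 or without BI-270 and under scaling by total counts alone, which moved the median of all genes to -0.20, and Cd163 was called without BI-274 and by DESeq2.

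Ratios of counts within a library do not depend on how libraries are scaled, and are given as a description, with no test. Msr1 had 0.785 to 1.22 counts per count of Adgre1 in the injured C57 tendons and 1.88, 3.81, 2.29 and 4.85 in the injured MRL tendons. In uninjured tendons the ratio was 0.372 to 1.18 in C57 and 0.701 to 1.12 in MRL. All injured MRL tendons were therefore above all other tendons, and the same held between injured MRL and injured C57 tendons for the ratio to Adgre1 of 11.2% of all genes. Mrc1 per Msr1 was 1.00 to 1.64 in injured C57 and 0.334 to 0.559 in injured MRL tendons, against 0.863 to 3.22 in uninjured C57 and 1.67 to 4.38 in uninjured MRL tendons. Mrc1 per Adgre1 overlapped between the injured groups, at 1.06 to 1.77 in C57 and 1.04 to 1.62 in MRL. Csf1r per Adgre1 was 3.02 to 4.63 in injured C57 and 2.04 to 3.18 in injured MRL tendons, which overlapped.

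Csf1 had 2.45 to 3.48 counts per count of its receptor Csf1r in uninjured C57 tendons and 0.712 to 0.902 in injured ones. In MRL the ratio was 2.89 to 7.71 before injury and 1.68, 3.06, 2.18 and 1.96 after it. Among the close relatives, Lyz1 had 0.0388 to 0.0656 counts per count of Lyz2 in injured C57 and 0.139 to 0.161 in injured MRL tendons. In uninjured replicates 1 to 3 it had 0.0549 to 0.0791 in C57 and 0.204 to 0.209 in MRL, whereas the library labelled C57 uninjured replicate 4 was at 0.238 and that labelled MRL uninjured replicate 4 at 0.0860. Mgl2 had 1.26 to 5.36 counts per count of Clec10a in injured C57 tendons, and 16.2, 59.7, 2.63 and 46.5 in the injured MRL tendons. Clec10a itself had a log2 fold change of -2.17 between injured MRL and injured C57 tendons, which did not pass (adjusted p = 0.227).

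**Figure D3:**
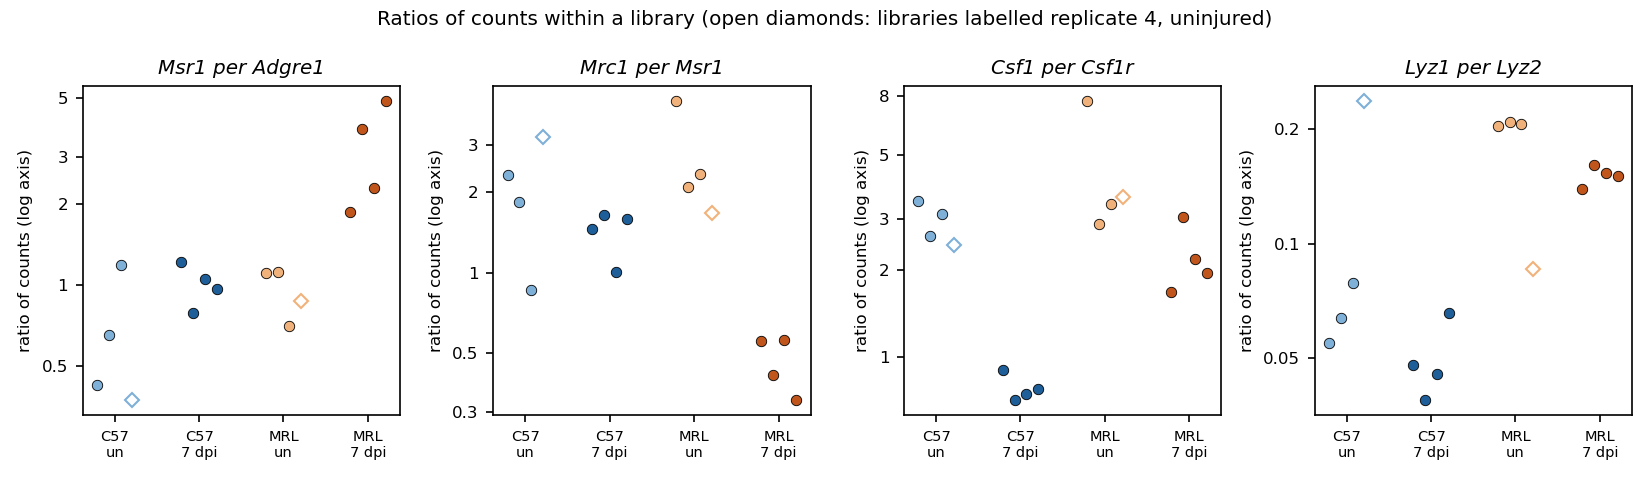
Ratios of counts within each library, on log axes, for Msr1 per Adgre1, Mrc1 per Msr1, Csf1 per Csf1r and Lyz1 per Lyz2, with the 4 groups along the horizontal axis. Points are single tendons and open diamonds are the uninjured libraries labelled replicate 4. Msr1 per Adgre1 was at 1.88 to 4.85 in the injured MRL tendons and at most 1.22 elsewhere, and for Lyz1 per Lyz2 each open diamond lay nearer to the other strain.

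Genes with profiles most like Adgre1 and Mrc1 were sought among the 15947 genes of the fit over all libraries, by the root-mean-square difference of centred log2 CPM over the 16 libraries. Of the genes outside the 10, the nearest to Adgre1 were C3ar1 (0.357), the receptor of a complement fragment, and Cyth4 (0.373), Arhgap30 (0.390), Laptm5 (0.421), Hmha1 (0.425) and Spi1 (0.436), the last of which encodes PU.1. Csf1r ranked 6 among all genes by likeness to Adgre1 (0.430), with Mrc1 at rank 34 and Msr1 at rank 670. Nearest to Mrc1 were Folr2 (0.345), a folate receptor gene of resident macrophages, and Lsp1 (0.366), Tcirg1 (0.368), Unc93b1 (0.404), Tnfrsf11a (0.417) and Lgmn (0.431), with Cd68 next at rank 7 (0.436). Csf1 and Mgl2 stood farthest from the other genes, and their distance to the nearest of these was 0.9495 and 1.53.

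The wider macrophage genes were described by lists. Of 24 further macrophage genes, 7 were called higher in C57 (median log2 fold change 1.91) and 18 in MRL (2.06), against 0.908% and 5.25% of all genes tested and medians over all genes of -0.05 and -0.03, and none was called lower. Without the 3 libraries that stand apart (those labelled uninjured replicate 4 and BI-181) these numbers were 19 and 17, where 658 of 14515 genes tested were called higher in C57. In either direction these fits called 867 of all genes in C57 and 909 in MRL, against 155 and 1057 with all libraries. Ccr2, the chemokine receptor of inflammatory monocytes, rose by a log2 fold change of 4.97 in C57 and 6.19 in MRL. Itgax, which encodes the integrin CD11c, was at most 0.0722 CPM in uninjured and at 1.77 to 20.5 CPM in injured MRL tendons. In MRL it passed the filter on low counts only through the injured libraries, which fixed its direction. It had a log2 fold change of 2.18 in C57 (adjusted p = 0.390). Mertk had the lowest value in MRL (-0.88) and was not called. Between the injured strains the 24 genes had a median log2 fold change of -0.17 (-0.06 over all genes), with 8 above 0 and 16 below. In this comparison 3 complement genes made by resident macrophages were called lower in MRL, C1qa (-1.22), C1qb (-2.12) and C1qc (-1.79), where 1.88% of all genes were called lower. Of the 24 genes only 1 was called lower without BI-181 and 2 with upper-quartile scaling. Lyz1 was called higher (1.39), where 1.55% of all genes were. The 3 complement genes were named after their values were seen.

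In a list of growth factors, receptors, signalling proteins and myeloid transcription factors around the CSF1 receptor, which also holds genes of the GM-CSF and G-CSF pathways, 2 of 14 genes tested were called higher in C57 and 5 of 15 in MRL, where 0.908% and 5.25% of all genes were. Without the libraries that stand apart, 6 of 15 were called in C57 and 5 of 15 in MRL. These fits, used for each list here, called 867 of all genes in C57 and 909 in MRL, against 155 and 1057 with all libraries. Csf2, the gene of the growth factor GM-CSF, was at most 0.241 CPM in uninjured and at 3.40 to 12.8 CPM in injured MRL tendons. It passed the filter on low counts only through the injured libraries, which fixed the direction of its call (adjusted p = 0.00494). Plcg2 (3.06), Grb2 (0.06) and Pik3cd (-0.05) did not pass in MRL. Csf3 had no counts in injured C57, uninjured MRL and injured MRL tendons. Of the genes of alternatively activated and perivascular macrophages, 3 of 18 were called higher in C57 (median 1.80), and 5 higher and 1 lower of 18 in MRL (median 0.74). Of all genes, 0.908% were called higher in C57, and 5.25% higher and 2.15% lower in MRL. Without the libraries that stand apart, 10 of 18 were called higher in C57, and 4 of 19 higher and none lower in MRL. Between the injured strains this list had a median log2 fold change of -1.17 (-0.06 over all genes). In this comparison 2 of 19 were called lower, Lyve1 (-2.27) and Maf (-1.17), where 1.88% of all genes were, and 1 of 19 without BI-181. Maf was named after its value was seen. Lyve1, the hyaluronan receptor of perivascular macrophages and lymphatic vessels, was also called lower after injury in MRL (-1.19, adjusted p = 0.0421), as were 2.15% of all genes. Chil3 had no counts in uninjured and 0.635 to 9.98 CPM in injured MRL tendons, and was called higher. It passed the filter on low counts only through the injured libraries, which fixed the direction of this call. Retnla (-2.88) was not called, and Il10 had no counts in either uninjured group or in injured MRL tendons.

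Other scavenger receptor genes were also measured. Of 11 tested, 2 were called higher in each strain, where 0.908% of all genes were in C57 and 5.25% in MRL. The median log2 fold change was 1.16 in C57 and -0.04 in MRL. Without the libraries that stand apart, 4 of 12 were called in C57 and 3 of 12 in MRL. These fits, used for each list here, called 867 of all genes in C57 and 909 in MRL, against 155 and 1057 with all libraries. Cxcl16 was called in MRL (1.91), whereas Olr1 (3.78), Scara3 (-1.52) and Scarf1 (-1.17) were not. Marco had no counts outside injured MRL tendons, and Cd5l had none in any group. The mannose receptor family and C-type lectins had 3 of 16 called higher in C57 and 10 of 17 in MRL, with medians of 2.61 and 2.51, where 0.908% and 5.25% of all genes were called higher. The numbers were 11 of 16 and 7 of 17 without the libraries that stand apart. Clec4e (5.66) and Clec4n (5.65), which encode fungal and mycobacterial glycolipid or glycan receptors, were called in MRL, and Ly75 (-1.26) and Cd209f (-0.35) were not. Of the SLAM family, 1 of 6 was called higher in C57 and 2 of 5 in MRL, where 0.908% and 5.25% of all genes were. Without the libraries that stand apart, 2 of 6 were called in C57 and 1 of 6 in MRL. Cd48 was called in both (2.85 and 2.28), Slamf9 in MRL (1.89), and Slamf8 (3.55) and Ly9 (2.04) did not pass. Between the injured strains Scara5 (-2.73, 1 of 12 scavenger receptor genes) and Slamf7 (-3.33, 1 of 6 SLAM family genes) were called lower in MRL, where 1.88% of all genes were. None of 16 lectin genes was called. Scara5 and Slamf7 were named after their values were seen. Without BI-181, 1 of 12 scavenger receptor genes and none of 7 SLAM family genes was called lower. That fit called 363 of all genes in either direction, against 502 with BI-181. Slamf1 and Slamf8 had no counts in uninjured C57 tendons, Slamf8 had none in injured C57 tendons and Sh2d1a had none in any group.

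**Figure D4:**
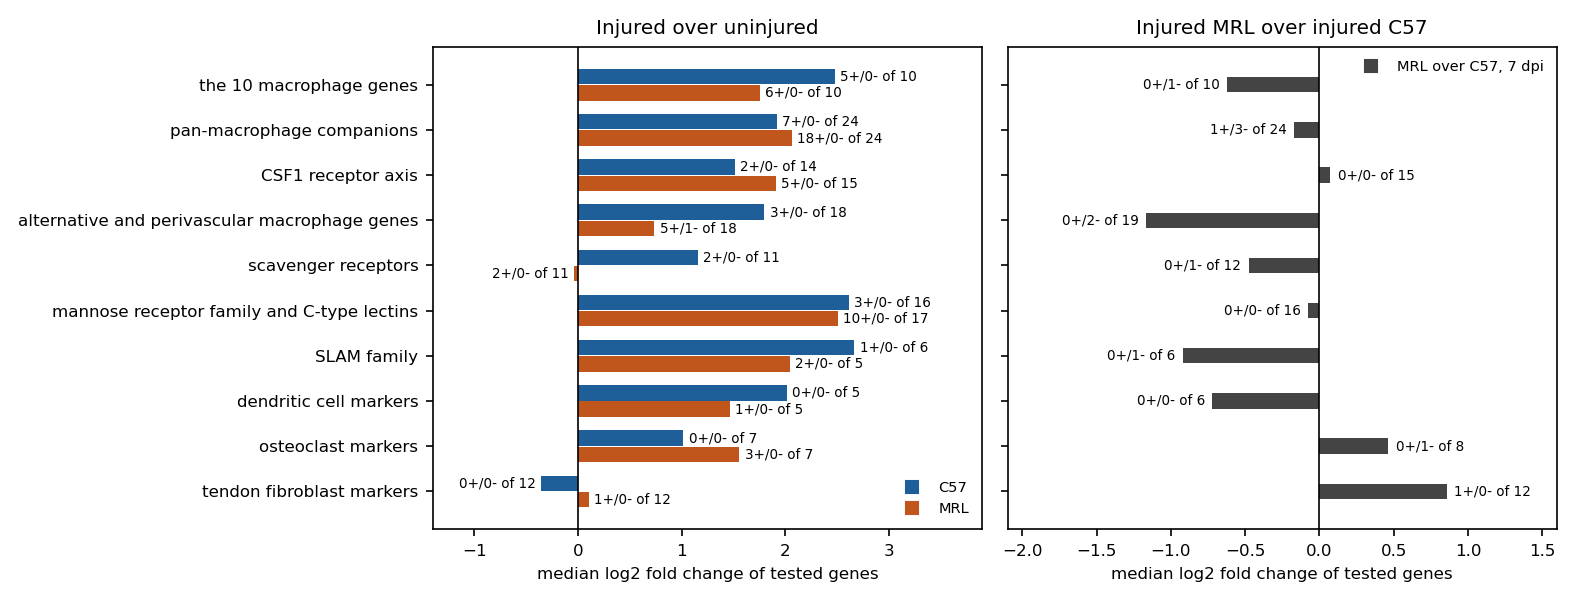
Median log2 fold change of the tested genes of each list, for injured over uninjured tendons in C57 and MRL (left) and for injured MRL over injured C57 tendons (right). Text at each bar gives the genes called higher (+) and lower (-) of those tested. Neutrophil, muscle and epidermal lists are not drawn, and the CSF1 receptor axis includes the genes of GM-CSF, G-CSF and their receptors. The alternative and perivascular list was at 1.80 in C57, 0.74 in MRL and -1.17 between the injured strains.

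Markers of other cells that could share transcripts with the 10 genes were read beside them. The 12 neutrophil genes summed to 1.56 to 3.72 CPM in injured C57 and 1.26 to 30.1 CPM in injured MRL tendons, with 139.8 CPM in C57 uninjured replicate 3. Ly6g had no counts in either injured group and Ltf none in any, Mpo, Elane, Ngp, Cxcr2, Retnlg, Mmp8 and Stfa2l1 had none in at least 1 group, and S100a8, the one neutrophil gene tested, was not called in C57 (-3.54) or MRL (3.26). The dendritic cell genes summed to 13.03 to 22.1 CPM in uninjured C57, 50.4 to 70.0 CPM in injured C57, 15.4 to 25.5 CPM in uninjured MRL and 29.2 to 39.5 CPM in injured MRL tendons. Of 5 tested in each strain none was called higher in C57 and 1 was in MRL, where 0.908% and 5.25% of all genes were, Cd209a (3.97), while Batf3 (2.92), Zbtb46 (-0.80) and Siglech (0.96) were not, and Xcr1 had no counts in uninjured, Clec9a in MRL and Ccr7 in uninjured C57 tendons. Without the libraries that stand apart, 2 of 5 dendritic cell genes were called in C57 and none of 5 in MRL. These fits, used for each list here, called 867 of all genes in C57 and 909 in MRL, against 155 and 1057 with all libraries. The osteoclast genes, some of which also mark fused macrophages, summed to 102.9 to 218 CPM and 179.5 to 221 CPM in uninjured and to 276 to 687 CPM and 458 to 704 CPM in injured C57 and MRL tendons. Most of this sum came from Ctsk, which fibroblasts also express, with means of 152 and 187 CPM in uninjured and 456 and 478 CPM in injured C57 and MRL tendons. Of 7 tested none was called in C57 and 3 in MRL (0.908% and 5.25% of all genes), among them Dcstamp (at most 0.332 CPM before and 0.925 to 19.7 CPM after injury) and Acp5 (2.45), while Itgb3 (0.83) and Tnfrsf11a (0.95) were not. Dcstamp passed the filter on low counts only through the injured libraries, which fixed the direction of its call. Between the injured strains 6 of 8 osteoclast genes were above 0 in MRL against C57, with a median of 0.47. Of these 8, 1 was called, Itgb3, which was lower (-2.55, named after its value was seen), where 1.88% of all genes were called lower. The numbers of osteoclast genes called were 3 of 6 in C57 and 3 of 7 in MRL when the libraries that stand apart were left out. Calcr had no counts in either uninjured group or in injured MRL tendons, Oscar had none in uninjured C57 and injured MRL tendons and Mmp9 had none in uninjured MRL tendons. The part of these cells in the levels of the 10 genes was not tested.

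Tendon fibroblast genes summed to 35496 to 67748 CPM in C57 and 69537 to 116620 CPM in MRL libraries. Dcn alone had group means of 24113 to 47955 CPM, whereas those of Scx were 59.0 to 136 CPM. With no other tissue measured beside them, these sums cannot check the tissue label. Of 12 tested, none was called in C57, and 1 was called higher in MRL, Thbs4 (1.31), where 5.25% of all genes were. Kera (2.36), Mkx (-0.28) and Egr1 (-1.51) were not called in MRL. Scx, named after its value was seen, was the 1 of 12 called higher in injured MRL than in injured C57 tendons (1.18), where 1.55% of all genes were. Epidermal genes, of which 9 were tested in each strain, were not called in either (Dsp -0.96, Krt10 -1.21, Flg -5.54 and Krt2 -4.63 in MRL). Of the skeletal muscle genes tested, 0 of 5 were called in C57 and 1 of 3 in MRL, Tnni2 (2.51), while Mylpf (-0.14) and Tnnt3 (-0.80) were not. Of all genes, 0.908% were called higher in C57 and 5.25% in MRL. The call of Tnni2 was lost without the library labelled MRL uninjured replicate 4, when 0 of 3 were called. Muscle genes reached 54539 CPM in BI-181 and 1646 CPM in BI-183, and at most 20.6 CPM in the other libraries. Myh1, Myh2, Myh4, Myh7 and Tnnc2 had no counts in injured MRL tendons, Pvalb had none in uninjured C57 tendons, and the epidermal gene Krt15 had none in injured C57 tendons. BI-181 had the lowest injured C57 value of each of the 10 genes. Without BI-181, the same 5 genes were called in C57 as with it, and the part of the muscle transcripts in its levels was not tested.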

How the data were processed

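Total RNA of 16 single mouse flexor tendons was sequenced in reads of 100 nt. The labels name a TruSeq kit, whereas the study's methods describe low-input amplification (SMARTer) and NexteraXT libraries. Per the methods and the submitters' processing notes, the authors trimmed reads with Trimmomatic 0.36, aligned them to GRCm38.p5 with STAR 2.5.2b and counted them per gene with featureCounts (Subread 1.5.0p3). The counting options, strand included, are not given in the sources used here. The deposited values are whole-number counts per gene and library, not normalized.

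From these counts, each comparison was fitted to its own libraries, and the interaction of strain and injury to all 16, with edgeR 4.0.16 in R 4.3.3: filterByExpr, TMM factors, robust quasi-likelihood tests and Benjamini-Hochberg adjustment over all genes tested, with standard errors derived from the F statistic. Calls needed an adjusted p under 0.05 and, except for the interaction, an absolute log2 fold change over 1. CPM used TMM-adjusted library sizes over the 16 libraries. The steps were checked on simulated counts, with 200 genes changed, in equal numbers 4-fold and 16-fold. Of these, 115 were called in C57, 144 in MRL and 89 for the interaction. Among those called, 43, 60 and 25 had been changed 4-fold. Intervals and the 3-count floor cover limited sampling only, and per the methods each group of tendons came from 4 animals.

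The 10 genes and the gene lists (24 further macrophage genes, the CSF1 receptor axis with other colony-stimulating factors, alternative and perivascular macrophage genes, scavenger receptors, C-type lectins, the SLAM family, and markers of neutrophils, dendritic cells, osteoclasts, muscle, epidermis and tendon fibroblasts) were chosen with earlier results of these data known. Named besides the 10 were the 6 genes most like Adgre1 and like Mrc1, the 2 largest and 2 smallest log2 fold changes of each list in MRL, Lyz1, Clec10a, list genes with no counts in a group, and genes that touch a result between the injured strains. Clec6a and Cd244a had no row under these symbols. Some genes that this rule names are not reported here. Alternatives were DESeq2 1.42.0, upper-quartile and total-count scaling, other filters, 1 fit for all libraries, a prior count of 0.5 in place of 2 for log2 CPM, and leaving out libraries.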

Additional observations from a re-analysis of the deposited data

Results flagged for a closer look

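Within each group of 4 libraries the gap of the highest or lowest library to the nearest of the others, on the log2 CPM scale, was set against Dixon's 95% critical value, for 40 combinations of gene and group, of which chance puts about 1 in 20 past the value. It was passed by 2, both in the library labelled C57 uninjured replicate 4. Csf1 was at 136 CPM there and at 359 to 398 CPM in the other uninjured C57 libraries. Mgl2 was at 0 CPM there and at 3.71 to 6.10 CPM in the others. This library also held 9.70% of its counts on epidermal genes and went against its strain label, and the part of either in these values was not tested.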

How the results depend on the processing

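In C57 after injury, the number of the 10 genes called was 5, and 4 with upper-quartile and 4 with total-count scaling (Adgre1 lost in both), 7 with at least 10 counts in every library, 7 with all 16 libraries in 1 fit, 9 by DESeq2, 9 without the 3 libraries that stand apart and 1 to 9 with 1 library left out. The number of all genes called was 155, and 754 by DESeq2, 269 with at least 10 counts in every library, 367 with all 16 libraries in 1 fit, 867 without the 3 libraries and 10 to 750 with 1 library left out. In MRL it was 1057, and 689 to 1260 with 1 left out, with 4 to 6 of the 10 called. Between the injured strains 2 of the 10 were called by DESeq2, 2 with total-count scaling, 2 without the 3 libraries and 0 to 2 with 1 left out. Of all genes 502 were called, and 1157 by DESeq2, 227 with all 16 libraries in 1 fit and 231 to 481 with 1 left out. Total-count scaling moved the share of calls that were higher in MRL from 45.2% to 32.9%. For the interaction DESeq2 called 128 of all genes. For the uninjured strains 58 genes were called by DESeq2, 1 with no filter, 1 with at least 10 counts in every library, 497 without the 3 libraries and 0 to 3 with 1 left out. As BI-181 is an injured library, leaving out both libraries labelled replicate 4 (added after the data were seen) is here the same fit as leaving out the 3. The cause of these shifts was not tested.

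Log2 fold changes that turned in sign were all near 0 or imprecise, and none was called. Csf1 between the injured strains was -0.074 with total-count scaling, -0.048 without the 3 libraries and -0.048 to 0.25 with 1 left out. The Csf1 interaction was -0.071 with total-count scaling and -0.11 to 0.27 with 1 left out. Between the uninjured strains Csf1 was -0.011 with total-count scaling, -0.13 without the 3 libraries or both labelled replicate 4, and -0.19 to 0.19 with 1 left out, and Lyz2 was -0.011 without these libraries and -0.095 to 0.19 with 1 left out. With 1 left out, the uninjured strain differences also spanned -0.91 to 0.52 for Cd163, -0.98 to 0.12 for Cd84, -0.77 to 0.78 for Mgl2 and -0.39 to 0.30 for Msr1 (-0.41 without both labelled replicate 4). The Cd84 interaction was 0.056 without both libraries labelled replicate 4 and -0.88 to 0.22 with 1 left out, that of Mgl2 was -0.81 to 0.76, Mgl2 between the injured strains was -0.070 to 0.046 and Cd163 in MRL after injury was -0.27 to 1.41.

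Uninjured libraries share replicate numbers between the strains. Same-numbered libraries did not deviate together (r = -0.26, 0.015, -0.10 and -0.23), and in a fit with a replicate block 0 of all genes and none of the 10 were called in the uninjured comparison, with Cd163 at -0.034 and Msr1 at 0.066. The injured libraries carry no replicate numbers. At 3 counts, 0.126 to 0.241 CPM, the depth limits Mgl2 and Cd84 in uninjured tendons most.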
